A study of Mus musculus with 6 samples.

Results

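Amino acid transporters carry amino acids across the plasma membrane. The 10 transporter genes described here were listed by symbol as carriers that activated T cells are known to use: Slc3a2, Slc7a5, Slc7a6, Slc7a11, Slc7a1, Slc43a1, Slc1a5, Slc1a4, Slc38a1 and Slc38a2. All 10 were found among the 55487 genes of the count files, and 8 of them were among the 13691 genes that had at least 10 counts in at least 3 libraries and could be tested. Slc7a11 and Slc1a4 did not reach that level.

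The study sequenced RNA from naive CD4 T (CD4N) cells of Foxo1TKO mice (n = 3 libraries) and of Foxo1Ctrl mice (n = 3 libraries) after activation in vitro. Both groups are on the C57BL/6J strain. Foxo1TKO mice carry floxed Foxo1 alleles and a Cre recombinase driven by CD4, so that Foxo1 is deleted during thymic development in both the CD4 and the CD8 T-cell lineages, and Foxo1Ctrl mice are floxed animals without Cre. The mice were young adults according to the study. CD4N cells sorted from lymph nodes stayed in culture for 4 days. The cultures received an antibody to CD3 at 0.1 µg/ml, in soluble form, and as antigen-presenting cells 250000 splenocytes of C57BL/6 CD3eKO mice, which lack T cells. The labels do not say whether the 3 libraries of a genotype came from separate mice or cultures, so p-values measure only the spread between these samples, which may be technical.

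T cells that leave quiescence build up protein and nucleotides, and for this they take up glutamine, leucine, arginine and cystine through dedicated carriers. Several of these carriers are heterodimers in which a light chain of the Slc7 family transports the amino acid and the heavy chain CD98, encoded by Slc3a2, brings it to the cell surface. Leucine and arginine that enter the cell are sensed by protein complexes on the lysosome that switch the kinase complex mTORC1 on, and Myc and Atf4 are known transcriptional regulators of the carrier genes.

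The libraries held between 14783890 and 19675447 RSEM expected counts, which are estimated read counts per gene. Values below are counts scaled to a common library size by edgeR's TMM method (normalized counts), or TPM, the RSEM measure of transcript share, a level per transcript length that allows genes to be compared with each other. The genotypes were compared gene by gene with the quasi-likelihood test of edgeR, with Benjamini-Hochberg adjusted p-values across the tested genes. A gene was called when its fold change exceeded 1.5 and its adjusted p was below 0.05. Log2 fold changes are Foxo1TKO over Foxo1Ctrl, with their standard error (SE). Foxo1 itself had between 46.5 and 115 normalized counts in Foxo1TKO libraries and between 1529 and 2285 in Foxo1Ctrl libraries. T-cell markers were abundant in every library (summed TPM of 7 markers between 6549 and 7470.1, with Cd28 called lower in Foxo1TKO cells and the other 6 not called).

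Activated CD4N cells without Foxo1 held more RNA of the arginine carrier Slc7a1, of the CD98 heavy chain Slc3a2 and of its leucine-carrying light chain Slc7a5, and no detectable RNA of Slc43a1, another carrier of large neutral amino acids. Of the 8 genes tested, 3 were called higher and 1 lower in Foxo1TKO cells. In 6 further fits, each without 1 library, Slc7a1 and Slc43a1 were always called. Slc7a5, at low counts, was called in 4 of these fits, and Slc3a2, just above the fold limit, in 3. Of all genes tested, 23.0% were called, 11.1% higher and 11.8% lower. In 6 of the 8 genes the normalized counts of the 2 genotypes did not overlap, which was the case for 42.7% of all genes tested. The median log2 fold change of the 8 genes was 0.56, beside 0.01 for all genes tested. In bulk RNA, fewer cells of a type and less RNA per cell cannot be told apart, which holds for every difference below.

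**Figure D1:**
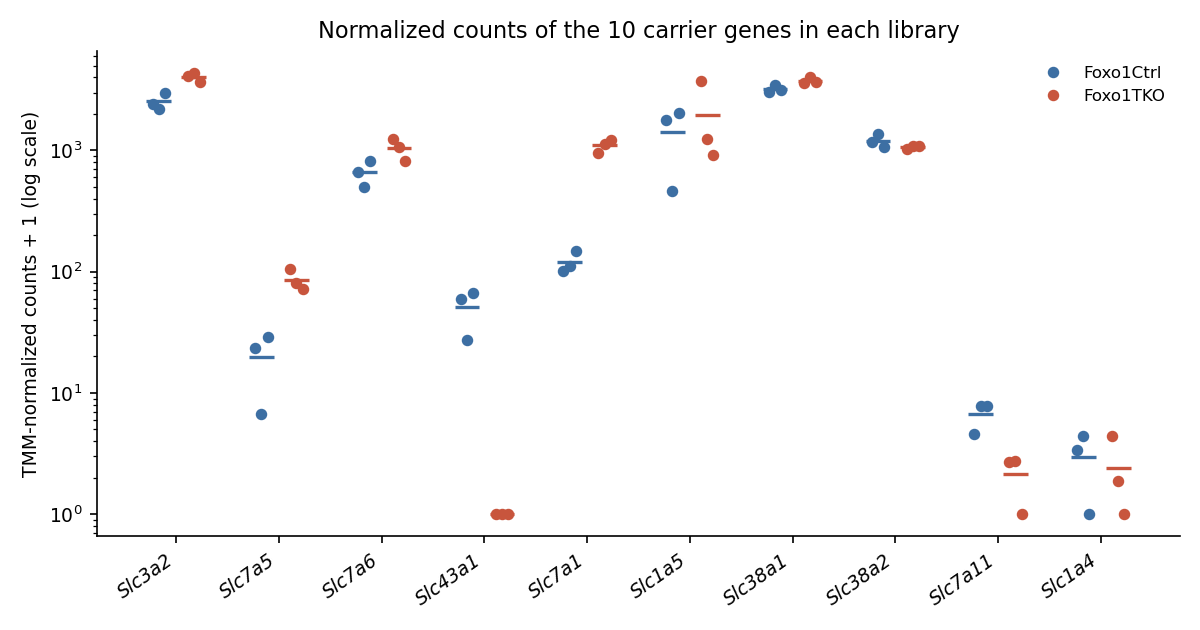
Normalized counts of the 10 carrier genes, plus 1, on a log scale. Each point is 1 library, bars are genotype means, and colours are the genotypes (n = 3 libraries each). For Slc7a1 all Foxo1TKO libraries lie above 950 and all Foxo1Ctrl libraries below 150 normalized counts, and Slc43a1 has no counts in Foxo1TKO libraries.

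Slc7a1 (ENSMUSG00000041313, GRCm38 chr5:148327410-148399904, minus strand) encodes CAT1, the main carrier of arginine and lysine in many cells, which works without CD98. It had 953, 1122 and 1229 normalized counts in the 3 Foxo1TKO libraries and 100.2, 111 and 146 in the 3 Foxo1Ctrl libraries. Every Foxo1TKO library thus lay several-fold above every Foxo1Ctrl library. The log2 fold change was 3.19 (SE 0.22), a 9.16-fold higher level in Foxo1TKO cells (adjusted p = 0.000115, edgeR's quasi-likelihood test). It was called in all 6 fits that each left out 1 library, with log2 fold changes between 3.08 and 3.37.

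The bases before the RefSeq transcription starts are shown for 3 carriers that changed, and for Slc7a11 because it holds an element bound by Atf4. RefSeq (GRCm38.p6) gave start sites for 7 of the 10 genes, but none for Slc7a5, Slc1a5 and Slc38a1, which were not searched. The 250 bases before each start were searched on both strands for the E-box CACGTG, which Myc binds, for the composite element TGATGNAA of Atf4 and C/EBP factors, and for the forkhead element GTAAACA. Of the windows of all genes, 6.02% hold the first, 3.45% the second and 3.17% the third. Letters of a matched element are in capitals, and stretches that overlap an annotated exon are left out or kept to the element. The windows of Slc7a1, Slc3a2, Slc7a6, Slc1a4 and Slc38a2 held none of the 3 elements. That of Slc43a1 held 1 E-box, at 64 to 59 bases before the start and inside an annotated exon of Slc43a1. That of Slc7a11 held the composite element on both strands, between 66 and 40 bases before the start, and 1 forkhead element. A match is a description of the sequence and says nothing of binding in these cells.
Slc7a1, chr5:148399905-148400154, minus strand: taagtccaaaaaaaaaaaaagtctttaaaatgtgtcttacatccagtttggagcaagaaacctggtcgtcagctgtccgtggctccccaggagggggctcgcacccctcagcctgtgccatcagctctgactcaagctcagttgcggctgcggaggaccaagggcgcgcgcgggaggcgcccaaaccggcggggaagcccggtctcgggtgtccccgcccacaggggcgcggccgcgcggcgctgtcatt
Slc3a2, chr19:8713898-8713960, minus strand: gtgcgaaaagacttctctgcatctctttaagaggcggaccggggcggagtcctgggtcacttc
Slc43a1, chr2:84840249-84840274, plus strand: ggtctccctcCACGTGgcagccgtgg
Slc7a11, chr3:50443652-50443680, minus strand: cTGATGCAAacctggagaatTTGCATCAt

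The CD98 heavy chain gene Slc3a2 (ENSMUSG00000010095, chr19:8706882-8723369, minus strand) had 4134, 4368 and 3643 normalized counts in Foxo1TKO libraries and 2438, 2212 and 2999.6 in Foxo1Ctrl libraries. The genotypes did not overlap. The log2 fold change was 0.67 (SE 0.16), a 1.59-fold higher level with an adjusted p of 0.0222 by edgeR's quasi-likelihood test. This fold lay just above the limit of 1.5, and the call was lost without replicate 1 of Foxo1TKO (adjusted p = 0.0549), without replicate 2 of Foxo1TKO (0.0971) and without replicate 1 of Foxo1Ctrl (0.0801), although the log2 fold change stayed between 0.59 and 0.80.

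Slc7a5 (ENSMUSG00000040010, chr8:121881150-121907694, minus strand) encodes LAT1, the light chain that exchanges leucine and other large neutral amino acids for glutamine. It had 105, 79.0 and 70.8 normalized counts in Foxo1TKO libraries and 22.7, 5.72 and 28.1 in Foxo1Ctrl libraries. The genotypes did not overlap, but the counts were low in both. The log2 fold change was 2.11 (SE 0.50), a 4.31-fold higher level (adjusted p = 0.0188, edgeR's quasi-likelihood test). The call was lost without replicate 2 of Foxo1TKO (adjusted p = 0.0546) and without replicate 1 of Foxo1Ctrl (0.0530). Leaving out replicate 2 of Foxo1TKO or replicate 1 of Foxo1Ctrl thus brought the number of called carriers from 4 to 2.

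Slc7a6 (ENSMUSG00000031904, chr8:106168857-106198706, plus strand) encodes the light chain y+LAT2, which exports arginine in exchange for neutral amino acids such as glutamine. Its normalized counts were 1242, 1067 and 818 in Foxo1TKO libraries and 664, 501 and 811 in Foxo1Ctrl libraries. The lowest Foxo1TKO library and the highest Foxo1Ctrl library nearly met. In TPM the genotypes overlapped (15.5 to 36 in Foxo1TKO and 8.95 to 22.8 in Foxo1Ctrl libraries). The log2 fold change of 0.66 (SE 0.23) did not pass the test (adjusted p = 0.0773, edgeR's quasi-likelihood test), whereas DESeq2 gave an adjusted p of 0.0398.

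Slc43a1 (ENSMUSG00000027075, chr2:84838850-84863594, plus strand) encodes LAT3, a carrier of leucine and other large neutral amino acids that needs no heavy chain. No Foxo1TKO library held a count of it, whereas the Foxo1Ctrl libraries held 49, 23 and 68 counts, or 58.4, 26.3 and 65.9 after normalization. Slc43a1 was the only one of the 8 tested carriers called lower in Foxo1TKO cells (adjusted p = 0.00229, edgeR's quasi-likelihood test), and it was called in all 6 fits that left out 1 library. Taking 3 counts as the level that a library with 0 counts can still hold, it was at least 16.7-fold lower, a bound that covers counting error only. Its paralog Slc43a2, which encodes the related carrier LAT4, had 133 ± 51.3 normalized counts in Foxo1TKO cells and 225 ± 68.2 in Foxo1Ctrl cells (SD, n = 3) and did not pass the test (log2 fold change −0.76, SE 0.35, adjusted p = 0.161, and 0.0423 with the replicate block).

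**Figure D2:**
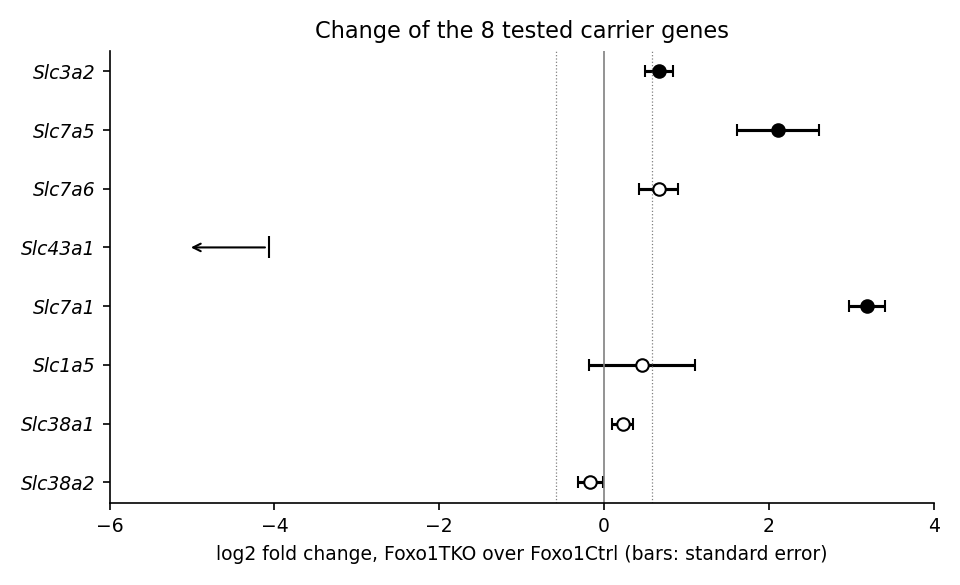
Log2 fold change of the 8 tested carrier genes, Foxo1TKO over Foxo1Ctrl, with bars of 1 standard error. Filled points were called, open points were not, dotted lines mark a fold of 1.5, and the arrow starts at the bound for Slc43a1. Slc7a1 (3.19) and Slc7a5 (2.11) lie far to the right of the limit, Slc3a2 (0.67) only just beyond it, and Slc38a1 and Slc38a2 near 0.

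The carriers of glutamine did not pass the test. Slc1a5 (ENSMUSG00000001918, chr7:16781340-16798274, plus strand) encodes ASCT2, which takes up glutamine in exchange for other neutral amino acids. It had 3746, 1231 and 916 normalized counts in Foxo1TKO libraries and 1771, 459.7 and 2046 in Foxo1Ctrl libraries. Libraries of the same genotype differed several-fold from each other, and the genotypes overlapped. The log2 fold change was 0.46 (SE 0.64, adjusted p = 0.651), and it turned to −0.41 without replicate 1 of Foxo1TKO (adjusted p = 0.631). The libraries lowest in Slc1a5 were those lowest on the second principal component of all genes, which held 17.1% of the variance, with scores of −38.4 for replicate 3 of Foxo1TKO and −53.9 for replicate 2 of Foxo1Ctrl. The effective length that RSEM gave Slc1a5 moved with it, from 2202 bases in replicate 1 of Foxo1TKO to 1545 bases in replicate 2 of Foxo1Ctrl. Within their genotypes, Slc3a2, Slc7a5 and Slc7a6 were also lowest in replicate 3 of Foxo1TKO and replicate 2 of Foxo1Ctrl. Slc7a1, Slc38a1 and Slc38a2 were lowest in other libraries. The part of the component or of effective length in the values of Slc1a5 and of these other carriers was not tested.

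Slc38a1 (ENSMUSG00000023169, chr15:96571418-96642913, minus strand) encodes SNAT1, a sodium-coupled carrier of glutamine and alanine. It had 3628, 3999 and 3691 normalized counts in Foxo1TKO libraries and 3055, 3469 and 3170.1 in Foxo1Ctrl libraries. In these counts all Foxo1TKO libraries lay above all Foxo1Ctrl libraries, but by little (log2 fold change 0.22, SE 0.13, adjusted p = 0.269, edgeR's quasi-likelihood test). In TPM the genotypes overlapped (64.4 to 79.1 in Foxo1TKO and 59.2 to 65.4 in Foxo1Ctrl libraries). Slc38a2 (ENSMUSG00000022462, chr15:96687392-96699730, minus strand) encodes the related carrier SNAT2, which many cells induce when amino acids run short. It had 1026, 1088 and 1095 normalized counts in Foxo1TKO libraries and 1167, 1369.9 and 1065 in Foxo1Ctrl libraries. These overlapped, and the log2 fold change was −0.17 (SE 0.15, adjusted p = 0.478).

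The other 2 carriers were near the limit of detection in both genotypes. Slc7a11 (ENSMUSG00000027737, chr3:49892526-50443614, minus strand) encodes xCT, the light chain that imports cystine in exchange for glutamate. The Foxo1TKO libraries held 2, 2 and 0 counts of it and the Foxo1Ctrl libraries 3, 6 and 7. Slc1a4 (ENSMUSG00000020142, chr11:20302180-20332713, minus strand) encodes ASCT1, a carrier of alanine, serine and cysteine, and had 4, 1 and 0 counts in Foxo1TKO libraries and 2, 3 and 0 in Foxo1Ctrl libraries. A difference between genotypes was not detectable for either at this depth.

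Per transcript length, Slc3a2 was the most abundant of the 10 carriers in all 6 libraries, with 188 ± 27.6 TPM in Foxo1TKO cells and 114 ± 27.0 TPM in Foxo1Ctrl cells (SD, n = 3). Slc38a1 (72.5 ± 7.48 and 62.5 ± 3.13 TPM) and Slc1a5 (67.8 ± 49.1 and 48.4 ± 27.9 TPM) came next by mean, and their order changed from library to library. In replicate 2 of Foxo1Ctrl, Slc1a5 (16.9 TPM) lay just below Slc38a2 (17.1 TPM). Slc7a6 (25.6 ± 10.2 and 16.3 ± 6.95 TPM) and Slc38a2 (15.7 ± 0.757 and 16.8 ± 0.841 TPM) followed, with ranges that overlapped in both genotypes. The level of Slc7a1 was 12.96 ± 0.297 TPM in Foxo1TKO cells, close to that of Slc38a2, and 1.42 ± 0.460 TPM in Foxo1Ctrl cells, close to the 1.21 ± 0.575 TPM of Slc43a1. Slc7a5 stood at 1.71 ± 0.509 TPM in Foxo1TKO cells and 0.377 ± 0.246 TPM in Foxo1Ctrl cells.

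**Figure D3:**
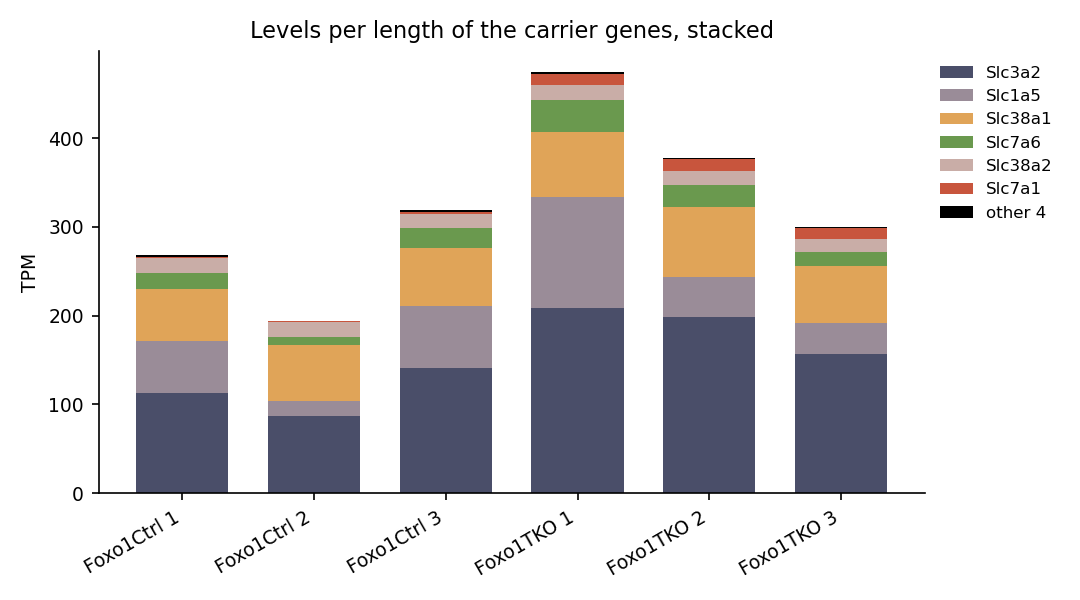
TPM of the carrier genes stacked for each of the 6 libraries, with the 4 least abundant genes (Slc7a5, Slc7a11, Slc1a4 and Slc43a1) drawn together. Slc3a2, Slc38a1 and Slc1a5 make up most of every bar, and the Slc7a1 segment is visible mainly in the Foxo1TKO libraries, where it is 2.68% to 4.28% of the bar, beside 0.494% to 0.590% in Foxo1Ctrl libraries.

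The summed level of the 10 carriers was 475, 378 and 300.3 TPM in Foxo1TKO libraries and 269, 194 and 319 TPM in Foxo1Ctrl libraries, so the genotypes overlapped in this sum. Transcripts of the heavy chain outnumbered those of its light chains throughout. The ratio of Slc3a2 TPM to the summed TPM of the Slc7 light chains was 5.24, 7.26 and 8.79 in Foxo1TKO libraries and 6.22, 9.39 and 5.96 in Foxo1Ctrl libraries, which overlap. Slc7a6 made up 87.0% to 92.3% of the light chain TPM in Foxo1TKO libraries and 94.9% to 96.8% in Foxo1Ctrl libraries. For every 100 TPM of Slc3a2 there were 1.09, 0.781 and 0.829 TPM of Slc7a5 in Foxo1TKO libraries and 0.407, 0.115 and 0.405 in Foxo1Ctrl libraries. Each Foxo1TKO library lay above each Foxo1Ctrl library in this ratio, which stayed near or below 1 in 100 in all of them.

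Markers of other cells and of division differed between the cultures too. The summed TPM of 8 B-cell markers was 7.36 to 10.1 in Foxo1TKO libraries and 23.9 to 30.7 in Foxo1Ctrl libraries. Of the 6 tested markers, 3 were called lower, among them Ms4a1 (0.41 to 0.71 TPM against 2.36 to 2.65 TPM). The calls of Ms4a1 and Cd79b were made in all 6 fits that left out 1 library, that of Cd79a in 2. The summed TPM of 9 proliferation markers was 470 to 637 in Foxo1TKO libraries and 338 to 450 in Foxo1Ctrl libraries. Of the 9, Top2a, Cdk1, Pcna and Mcm5 were called higher and Mki67, Ccnb1, Ccna2, Birc5 and Mcm2 were not called. Only the call of Mcm5 was made in all 6 fits that left out 1 library. Those of Top2a and Pcna were made in 2 of these fits and that of Cdk1 in 1. Of the 9 log2 fold changes, 7 lay above 0, and those of Mki67 (−0.12) and Birc5 (−0.41) lay below. RNA levels of these markers do not count divisions. By dye dilution, the study found that Foxo1-deficient CD4N cells proliferated markedly less in cultures of this kind. Of the 4 plasma cell markers, Jchain was called lower, in 3 of the 6 fits that left out 1 library as well. Prdm1 was called lower too, in all 6 of them. Xbp1 was not called, with 103 ± 33.4 TPM in Foxo1TKO and 99.4 ± 40.8 TPM in Foxo1Ctrl libraries (SD, n = 3). Sdc1 did not exceed 0.28 TPM and could not be tested. The summed TPM of the 4 was 106 to 154 against 162 to 216, nearly all of it from Xbp1 and Jchain. Whether the RNA of Jchain, Prdm1 and Xbp1 came from plasma cells or from the T cells was not tested. The summed TPM of 7 macrophage and monocyte markers was 4.36 to 5.84 in Foxo1TKO libraries and 2.41 to 3.40 in Foxo1Ctrl libraries, without overlap. Most of it was Cd68, the only one of the 7 that could be tested, with 4.17, 4.29 and 4.92 TPM against 2.94, 2.37 and 2.37 TPM (log2 fold change 0.74, adjusted p = 0.0989, not called). Csf1r and Adgre1, defining markers of macrophages, did not exceed 0.08 TPM, Lyz2 reached 0.92 TPM in replicate 3 of Foxo1TKO, and Mertk was at 0 in all libraries. No marker of CD8 T cells, macrophages, dendritic cells, neutrophils, NK cells or erythroid cells was called. The neutrophil markers S100a8 and S100a9 were at 0 in all Foxo1Ctrl libraries and reached 2.68 and 2.48 TPM in replicate 1 of Foxo1TKO. The part of these markers' cells in the values of the carriers was not tested.

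Other carriers of the cell surface were mostly silent. Of 35 listed, 8 could be tested, 1 was called higher and 2 lower, and their median log2 fold change was 0.06. Slc6a19, a sodium-coupled carrier of neutral amino acids known from gut and kidney, had 0, 0.877 and 7.51 normalized counts in Foxo1TKO libraries and 198, 91.5 and 135 in Foxo1Ctrl libraries (log2 fold change −5.32, SE 0.76, adjusted p = 0.00232, edgeR's quasi-likelihood test), and was called in all 6 fits that left out 1 library. Slc7a7, the second y+LAT light chain, was called higher from few counts (log2 fold change 1.68, SE 0.52, adjusted p = 0.0496), and Slc38a6 was called lower (−1.09, SE 0.32, adjusted p = 0.0448). Both calls were lost whichever of the 6 libraries was left out, with adjusted p between 0.0509 and 0.152 for Slc7a7 and between 0.0676 and 0.140 for Slc38a6, so that 1 gene of the list was called in each of these fits. Slc38a6 was not called either when effective lengths entered the fit (0.151), and neither was called with no filter on low counts (0.0604 for Slc7a7 and 0.0681 for Slc38a6). These 3 genes were picked after their values were seen, as the called ones of the list.

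Of 12 carriers of the lysosome, 11 were tested, 2 were called higher, 2 lower and 7 were not called, with a median log2 fold change of 0.35. Without replicate 1 or 3 of Foxo1Ctrl or without replicate 2 of Foxo1TKO, 2 were called. Slc38a9, the lysosomal arginine sensor and carrier that acts on mTORC1, had 457, 547 and 479.7 normalized counts in Foxo1TKO libraries and 1104, 1178 and 901 in Foxo1Ctrl libraries. It fell by 1.10 on the log2 scale (SE 0.17, adjusted p = 0.00342, edgeR's quasi-likelihood test). Slc36a4, a carrier of proline and tryptophan, had 778, 784 and 710.4 counts against 217, 202 and 302 and rose by 1.65 (SE 0.20, adjusted p = 0.00126). Both were called in all 6 fits that left out 1 library. Slc15a3, a carrier of histidine and peptides, was called higher (log2 fold change 1.80) and Slc36a1, the lysosomal carrier of small neutral amino acids, lower (−1.30), both from fewer than 100 mean counts and named after their values were seen. The call of Slc36a1 remained in 1 and that of Slc15a3 in 2 of the 6 fits that left out 1 library, with adjusted p up to 0.105 and 0.0654. Slc36a1 was also not called when effective lengths entered the fit (0.109) or with the replicate block (0.0505).

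Of 14 mitochondrial amino acid carriers, 12 were tested, 1 was called higher and 1 lower, with a median log2 fold change of 0.56. Slc25a13, the mitochondrial exchanger of aspartate and glutamate, rose (log2 fold change 1.23, SE 0.33, adjusted p = 0.0290, edgeR's quasi-likelihood test), with 164 to 319.5 normalized counts against 77.8 to 129.8. The call was lost without replicate 1 (adjusted p = 0.0771) or 2 (0.0736) of Foxo1TKO and without replicate 1 (0.102) or 2 (0.0651) of Foxo1Ctrl. Slc25a40, a mitochondrial glutathione carrier, fell by 0.98 (SE 0.23, adjusted p = 0.0168), and its call was lost without replicate 3 of Foxo1TKO (0.0557) and without replicate 1 (0.0697) or 3 (0.0599) of Foxo1Ctrl. The number called was 0 without replicate 1 of Foxo1Ctrl and 1 without any one of the Foxo1TKO libraries.

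**Figure D4:**
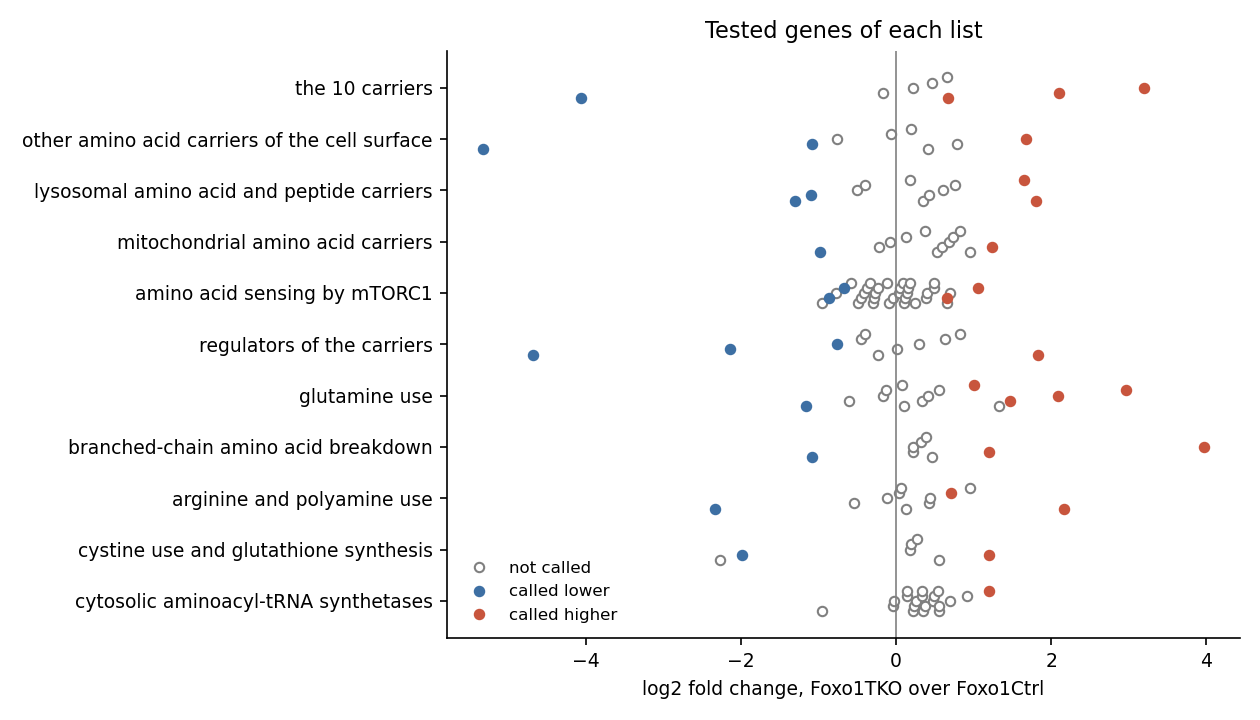
Log2 fold change, Foxo1TKO over Foxo1Ctrl, of the tested genes of each list, 1 point per gene, with Slc43a1 at its bound. Red points were called higher, blue points lower and open points were not called. The carriers and the genes of glutamine use, of branched-chain breakdown and of arginine and polyamine use hold called genes far to the right. Bcat1 of branched-chain breakdown (3.97) lies furthest. Most points of mTORC1 sensing lie within 1 of 0.

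Among regulators of the carriers, 11 of 11 were tested, 1 was called higher and 3 lower, with a median log2 fold change of −0.23. Myc, known to drive carrier genes and growth in activated T cells, had 6511, 5225 and 5121 normalized counts in Foxo1TKO libraries and 1492, 1291 and 1973 in Foxo1Ctrl libraries. The genotypes were well apart (log2 fold change 1.82, SE 0.20, adjusted p = 0.000761, edgeR's quasi-likelihood test), and the call was made in all 6 fits that left out 1 library. Atf4, the transcription factor of the amino acid response, which is regulated largely at translation, had 767, 676 and 622 counts against 655, 438 and 595 and did not pass the test (log2 fold change 0.29, SE 0.20, adjusted p = 0.334).

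Ddit3, which encodes the stress-induced factor CHOP, fell by 0.76 (SE 0.16, adjusted p = 0.0116), a call lost without replicate 2 of Foxo1TKO (0.0662). Trib3, a pseudokinase gene named after its values were seen, had 5.07, 5.26 and 0 normalized counts in Foxo1TKO libraries and 193, 38.9 and 120.1 in Foxo1Ctrl libraries, a log2 fold change of −4.69 (SE 0.80, adjusted p = 0.00491). Hif1a, which encodes the oxygen-regulated factor and is linked to glycolysis in T cells, fell by 2.14 (SE 0.25, adjusted p = 0.000964) and was called in all 6 fits that left out 1 library.

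Of 37 genes of amino acid sensing by mTORC1, 34 were tested, 2 were called higher, 2 lower and 30 were not called, and the median log2 fold change was 2.6e-05. None was called without replicate 2 of Foxo1TKO, and 2 were called without replicate 1 or 3 of Foxo1Ctrl. Sesn1, which encodes a sestrin, a family that restrains mTORC1 when leucine is low and includes known Foxo targets, had 2800.3, 3099.8 and 3499.6 normalized counts in Foxo1TKO libraries and 5183, 4364 and 5459 in Foxo1Ctrl libraries. It fell by 0.67 (SE 0.16, adjusted p = 0.0175, edgeR's quasi-likelihood test), a call lost without replicate 2 of Foxo1TKO (0.0778) and without replicate 1 (0.0557) or 3 (0.0663) of Foxo1Ctrl. Sesn3 did not reach the fold of 1.5, with 1844, 1928 and 2145 counts against 2747, 3014 and 3084 (log2 fold change −0.58, SE 0.14, adjusted p = 0.0189), and it was called without replicate 3 of Foxo1TKO (−0.64) and without replicate 1 of Foxo1Ctrl (−0.64). The log2 fold change of Sesn3 was only −0.18 when effective lengths entered the fit (adjusted p = 0.678) and −0.16 on the authors' normalized signal, which is scaled by effective length (adjusted p = 0.698, limma). Sesn2 had 48.0 ± 26.6 counts against 51.2 ± 22.6 (SD, n = 3), with no difference beyond that spread (adjusted p = 0.920).

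Of the complexes between the sensors and mTORC1, Sec13, a subunit of GATOR2 and of the COPII coat, rose by 0.66 (SE 0.13, adjusted p = 0.00992), a call lost without replicate 2 of Foxo1TKO (0.0597) and without replicate 1 of Foxo1Ctrl (0.0508). Fnip1, a partner of folliculin, fell by 0.87 (SE 0.19, adjusted p = 0.0146), a call lost without replicate 2 of Foxo1TKO (0.0745). Rragb, a Rag GTPase gene of under 100 mean counts named after its values were seen, was called higher (log2 fold change 1.06, SE 0.30, adjusted p = 0.0360), in 2 of the 6 fits that left out 1 library as well, but not when effective lengths entered the fit (0.0505).

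Of 15 genes of glutamine use, 14 were tested, 4 were called higher and 1 lower, with a median log2 fold change of 0.38. Ctps, which makes CTP from UTP and glutamine, had 642, 526 and 537 normalized counts in Foxo1TKO libraries and 111, 89.2 and 197 in Foxo1Ctrl libraries (log2 fold change 2.09, SE 0.31, adjusted p = 0.00255, edgeR's quasi-likelihood test). Ppat, the first enzyme of purine synthesis, rose by 1.01 (SE 0.16, adjusted p = 0.00379). Cad, which starts pyrimidine synthesis (log2 fold change 1.47), and Gpt2, a mitochondrial alanine aminotransferase (2.96), were called higher too and are named after their values were seen. These 4 calls were made in all 6 fits that left out 1 library. Glul, which makes glutamine, fell by 1.16 (SE 0.34, adjusted p = 0.0399) with 380.4, 620.3 and 749 counts against 1013, 1904 and 987. Of the 6 fits that left out 1 library, only the one without replicate 3 of Foxo1TKO called it, with adjusted p between 0.0510 and 0.110 in the others, and it was not called when effective lengths entered the fit (adjusted p = 0.0566). Asns, the asparagine synthetase gene, named after its values were seen, had 161, 150.03 and 50.4 counts against 25.0, 46.9 and 69.8 and did not pass the test (log2 fold change 1.33, SE 0.51, adjusted p = 0.101). It passed without replicate 3 of Foxo1TKO (0.0324), with DESeq2 (0.0416) and when effective lengths entered the fit (0.0370).

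The first steps of branched-chain amino acid breakdown held the largest rise of all the genes named here. Bcat1, the cytosolic aminotransferase of leucine, isoleucine and valine, had 444, 367 and 327 normalized counts in Foxo1TKO libraries and 22.7, 14.9 and 32.0 in Foxo1Ctrl libraries (log2 fold change 3.97, SE 0.32, adjusted p = 0.000195, edgeR's quasi-likelihood test). All 8 listed genes were tested, 2 were called higher and 1 lower, with a median log2 fold change of 0.35. Bckdhb, a subunit of the branched-chain ketoacid dehydrogenase, rose by 1.20 (SE 0.24, adjusted p = 0.0104), a call lost without replicate 2 of Foxo1TKO (0.0550). Ppm1k, the phosphatase that activates that complex, fell by 1.09 (SE 0.19, adjusted p = 0.00507).

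Of 13 genes of arginine and polyamine use, 11 were tested, 2 were called higher and 1 lower, with a median log2 fold change of 0.13. Srm, spermidine synthase, had 833, 939 and 881 normalized counts in Foxo1TKO libraries and 75.1, 154 and 355 in Foxo1Ctrl libraries (log2 fold change 2.17, SE 0.48, adjusted p = 0.0148, edgeR's quasi-likelihood test), a call lost without replicate 2 of Foxo1TKO (0.0506). Sms, spermine synthase, rose by 0.71 (SE 0.21, adjusted p = 0.0418), a call lost without replicate 2 (0.143) or 3 (0.121) of Foxo1TKO and without replicate 1 (0.128) or 3 (0.0938) of Foxo1Ctrl, and when effective lengths entered the fit (0.102). Without replicate 2 of Foxo1TKO, 1 gene of the list was called. Ass1, which makes the precursor of arginine from citrulline and aspartate, had 399, 194 and 116 counts against 1626, 852 and 1126 and fell by 2.34 (SE 0.45, adjusted p = 0.00848). Ass1 was called in all 6 fits that left out 1 library. A link between its change and that of the arginine carrier Slc7a1 was not tested.

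Of 10 genes of cystine use and glutathione synthesis, 7 were tested, 1 was called higher and 1 lower, with a median log2 fold change of 0.19. Txnrd1, thioredoxin reductase, rose by 1.20 (SE 0.15, adjusted p = 0.00133, edgeR's quasi-likelihood test) and Glrx, glutaredoxin, fell by 1.99 (SE 0.18, adjusted p = 0.000304), both in all 6 fits that left out 1 library. Of the 20 cytosolic aminoacyl-tRNA synthetases, which load amino acids onto tRNA, all were tested and 1 was called, with 17 of the 20 log2 fold changes above 0 and a median of 0.35. The called one was Farsb, a subunit of phenylalanyl-tRNA synthetase, with 2020.2, 2113 and 2022 normalized counts against 786, 1041 and 862 (log2 fold change 1.19, SE 0.16, adjusted p = 0.00156). The number called was 4 without replicate 2 of Foxo1Ctrl and 2 without replicate 1 or 3 of Foxo1TKO. It was 4 with no limit on the fold, and 2 with DESeq2, with effective lengths in the fit, on the authors' normalized signal, with no filter on low counts or with the replicate block.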

How the data were processed

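RNA of 6 libraries of in vitro activated CD4N cells was compared between Foxo1TKO (n = 3) and Foxo1Ctrl (n = 3), with groups and replicate numbers taken from the sample titles. Per the labels and the study's methods, the authors aligned reads with STAR 2.7.6a to GRCm38 and counted with RSEM 1.3.1, which gave the deposited expected counts, TPM and effective lengths per gene. Whether counting used strand is not given in the sources used here. A second table that the authors deposited gives normalized signal for 13564 genes, which holds 8 of the 10 carriers. After rescaling each library by its median, 99.88% of its values were matched within 0.1% by counts divided by relative effective length and a DESeq2 size factor.

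Expected counts were rounded to whole numbers, and genes that reached 10 counts in 3 or more libraries were fitted with edgeR 4.0.16 in R 4.3.3 (TMM, glmQLFit and glmQLFTest, prior count 1, genotype as the only term). Adjustment was by the Benjamini-Hochberg method over all genes tested, and calls needed an adjusted p under 0.05 and a fold over 1.5. The study used DESeq2's Wald test, run here as an alternative (DESeq2 1.42.0) beside limma-voom (limma 3.58.1), DESeq2 size factors, effective lengths as offsets, filterByExpr, no filter, limma on log2 of the normalized signal plus 1, the replicate block, no fold limit, and each library left out in turn. The tests were tried on simulated counts. With 3 libraries per genotype, the smallest two-sided p of a permutation test is 0.1.

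The carriers and all gene lists were chosen with earlier results of these data known. The genes named are the 10 carriers, Foxo1, Myc, Atf4, Sesn1, Sesn2, Sesn3 and, of each other list, the up to 4 called genes that changed most among those averaging 100 or more normalized counts. Genes outside this rule were chosen after their values were seen, namely Slc7a7, Slc38a6, Slc6a19, Slc43a2, Slc36a1, Slc15a3, Rragb, Trib3, Gpt2, Cad and Asns. Some genes of the lists are not reported here. Gene positions came from GENCODE M21 (GRCm38), which names 55141 of the 55487 genes, and promoter windows from RefSeq (GRCm38.p6). Protein sequences were not used here. Figures were drawn with matplotlib 3.10.9.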

Additional observations from a re-analysis of the deposited data

How the results depend on the processing

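The number of genes called was 3145, and with 1 library left out at a time it ranged from 1854 to 3320.0, lowest without replicate 2 of Foxo1TKO and 2032 without replicate 1 of Foxo1Ctrl. Of the carriers, 4 were called, with a range of 2 to 4 across the fits that omitted 1 library. DESeq2 called 5, adding Slc7a6, and every other alternative tool, scaling, filter or unit called 4. The setting with no limit on the fold reuses the main fit, so its values could not change direction. Of the 120 alternative values of the 8 tested carriers, those of that setting included, 113 kept their direction and their side of the threshold. Of the others, 5 lost the call, 1 gained it and 1 turned direction. The last was Slc1a5, whose log2 fold change ran from −0.41 to 0.82 across the libraries left out. That of Sesn2 ran from −0.64 to 0.14. The cause was not tested. With the replicate block, 3318 genes and 4 carriers were called. Deviations from the genotype means correlated by 0.43, 0.20 and −0.11 between libraries of the same number, and not every library correlated best with its own number, so the numbers were not taken to pair the libraries. The Slc7a5 TPM per 100 Slc3a2 TPM ranged from 0.781 to 1.09 in Foxo1TKO libraries and from 0.115 to 0.407 in Foxo1Ctrl libraries. Low counts limit Slc7a5, Slc43a1, Slc7a11 and Slc1a4, and a gene that missed the threshold is not shown to be equal between genotypes.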
